A study of Homo sapiens with 12 samples.

Results

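The enzymes that build the cap of messenger RNA were followed through RNA-seq libraries of the human osteosarcoma line U2OS, expressing either EIF4E-Flag (a tagged form of eIF4E) or the vector. They are RNGTT, RNMT, FAM103A1, CMTR1, CMTR2 and PCIF1, 6 of the 58684 genes in the count file, chosen by name for their place in the biochemistry of the cap, with earlier results of these data known. The 12 libraries form 4 groups of 3, namely total RNA (input) and RNA pulled down by a cap immunoprecipitation (Cap IP), each from vector cells and from eIF4E cells. eIF4E recognises the m7G cap and starts translation from it, and the study concerns its effect on how many transcripts carry a cap. The labels mention transient transfection as well as stable lines. They do not say which applies here, what promoter drives EIF4E-Flag, whether a line was 1 clone, or whether replicates were separate cultures, so p-values measure the spread between these libraries, which may be technical.

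The cap is added to RNA polymerase II transcripts shortly after they start. RNGTT, the capping enzyme, trims the triphosphate end of the new RNA and adds a guanosine. RNMT then methylates that guanosine to m7G, and it works with a small activating subunit, which the file calls FAM103A1 and current annotation RAMAC. CMTR1 and CMTR2 add a methyl group to the ribose of the first and the second transcribed nucleotide, and PCIF1 methylates the base of a first nucleotide that is adenosine. In bulk RNA a change of a gene between eIF4E and vector cells can come from the share of cells that express it or from its RNA per cell. These cannot be told apart.

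The cap is joined to the first transcribed base, so the region around the start of transcription is shown for the genes on which the results turn. CMTR1 and PCIF1 are shown because they moved in opposite directions in Cap IP, relative to the median of all genes. FAM210A is shown because it starts beside RNMT on the other strand of chromosome 18. The RefSeq start of FAM210A is at 13726558, and GENCODE puts the RNMT start at 13726660 and that of FAM210A at 13726663, so that the GENCODE genes overlap at their starts. The sequences are from RefSeq on GRCh38.p14, 5′ to 3′ on the strand of the gene, with 250 bases before the start in lower case and the first 30 transcribed bases in capitals. The windows are chr6:37432971-37433250 on the plus strand for CMTR1, chr20:45934433-45934712 on the plus strand for PCIF1 and chr18:13726529-13726808 on the minus strand for FAM210A.
CMTR1: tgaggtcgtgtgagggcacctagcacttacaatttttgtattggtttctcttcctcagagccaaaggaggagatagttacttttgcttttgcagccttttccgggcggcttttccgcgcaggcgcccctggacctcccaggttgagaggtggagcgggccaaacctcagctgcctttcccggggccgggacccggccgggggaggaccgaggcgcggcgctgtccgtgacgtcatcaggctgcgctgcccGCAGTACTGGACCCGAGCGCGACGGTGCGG
PCIF1: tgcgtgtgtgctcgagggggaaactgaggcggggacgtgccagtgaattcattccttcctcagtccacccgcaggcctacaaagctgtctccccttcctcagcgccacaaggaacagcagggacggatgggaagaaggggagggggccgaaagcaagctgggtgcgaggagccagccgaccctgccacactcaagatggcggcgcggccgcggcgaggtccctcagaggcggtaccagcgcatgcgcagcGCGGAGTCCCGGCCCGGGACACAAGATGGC
FAM210A: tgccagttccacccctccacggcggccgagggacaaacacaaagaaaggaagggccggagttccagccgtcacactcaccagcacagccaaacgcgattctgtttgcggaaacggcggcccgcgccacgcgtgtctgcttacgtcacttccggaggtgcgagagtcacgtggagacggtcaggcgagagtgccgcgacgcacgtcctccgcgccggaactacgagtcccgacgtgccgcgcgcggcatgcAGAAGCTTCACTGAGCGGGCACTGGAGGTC
Of the 6 members, 5 had an entry in the RefSeq table, and RNMT had none under its own name. Fixed motifs were searched on both strands of the 300-base windows from 250 bases before to 50 bases after the start. PCIF1 held the YY1 motif AAGATGGCG 2 times, once upstream and once across the end of the printed capitals, and 1.75% of all 35116 promoter windows held it. PCIF1 also held the NRF1 motif GCGCATGCG, on both strands of 1 palindrome just before the start, which was in 1.92% of all windows. The FAM210A window, which contains the GENCODE start of RNMT, held the E-box CACGTG (7.26% of all windows) and the ETS motif CCGGAAG (10.3%). CMTR1 held CCAAT and GGGCGG, found in 34.6% and 45.0% of all windows. The TATA box TATAAA, in 11.5% of all windows, was in none of these 3. These are matches of letters, and no binding was measured.

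Library totals ran from 1206321 to 1813486 counts, and 3 counts stood for 1.19 to 3.15 CPM (counts relative to library size, with TMM scaling). Of the 6 members, 4 had enough counts to be tested in the fit over 12460 genes, and RNGTT and CMTR2 did not. EIF4E, the check of the labels, had 15, 9 and 15 counts in vector input and 39, 27 and 23 in eIF4E input. These groups did not overlap, yet the log2 change was called neither in input (0.98, edgeR adjusted p = 0.231) nor in Cap IP (0.79, edgeR adjusted p = 0.492). Among markers of the labelled cell type, COL1A1, VIM and SPARC held 10693, 15467 and 5646 counts over all libraries, whereas COL1A2 held 2 and TWIST1 0. Blood markers summed to at most 1.05 CPM in any library. Epithelial markers (EPCAM, CDH1, KRT19) summed to 5.48 to 12.3 CPM in input and 13.4 to 30.5 in Cap IP, and neuronal ones (SNAP25, SYT1, RBFOX3) to 12.8 to 29.6 and 6.38 to 38.0. The part of these in the Cap IP changes was not tested.

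The sources used here do not say on which strand reads were counted, and this bears on what each count is. Of 620 pairs of a gene and its -AS1 antisense gene with at least 120 counts together, the antisense gene held more counts in 268 and over 10 times more in 56. In GENCODE release 44, CMTR1 and RNGTT share no exon bases with any other gene. RNMT shares 4 with FAM210A, PCIF1 shares 122 and CMTR2 163 with unnamed long noncoding RNA genes on the other strand, and FAM103A1 shares 243 with C15orf40 on the other strand. Without the strand, RNA of a gene and RNA from the other strand over its exons cannot be told apart. The pseudogene RNGTTP1 held 0 counts and FAM103A2P, a copy of FAM103A1, held 1.

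The levels spanned a wide range once divided by exon length. In vector input PCIF1 stood at 13.5 ± 3.49 CPM per kb of exon (SD, n = 3) and CMTR1 at 9.62 ± 2.07. The single libraries of these 2 genes overlapped, from 10.8 to 17.5 for PCIF1 and from 8.31 to 12.01 for CMTR1. FAM103A1 followed at 5.31 ± 1.51 CPM per kb, below every CMTR1 library. RNMT, its catalytic partner, was at 1.16 ± 0.374 CPM per kb, below every FAM103A1 library. RNGTT at 0.560 ± 0.290 and CMTR2 at 0.349 ± 0.223 were lowest, and RNMT overlapped RNGTT as RNGTT overlapped CMTR2. In eIF4E input the order was the same, with PCIF1 at 14.2 ± 2.26 and CMTR1 at 7.04 ± 1.07 CPM per kb, and here these 2 did not overlap, while CMTR1 and FAM103A1 did (5.93 to 8.07 against 4.06 to 6.97). In vector Cap IP the order below PCIF1 was another one. PCIF1 was at 25.3 ± 6.43 CPM per kb, FAM103A1 at 6.55 ± 2.84 and CMTR1 at 2.67 ± 0.953. FAM103A1 lay above CMTR1 in eIF4E Cap IP too, at 5.94 ± 0.541 against 2.41 ± 1.45, and with these lengths the libraries of the 2 genes did not overlap in either kind of cell. The spacing of CMTR1 and FAM103A1 depended on the length used. Divided by the 4034 bases of its longest transcript, CMTR1 ran from 2.34 to 4.82 CPM per kb in vector Cap IP, which overlapped the 3.73 to 9.40 of FAM103A1, and from 7.75 to 10.6 in eIF4E input, which lay above all FAM103A1 libraries.

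**Figure D1:**
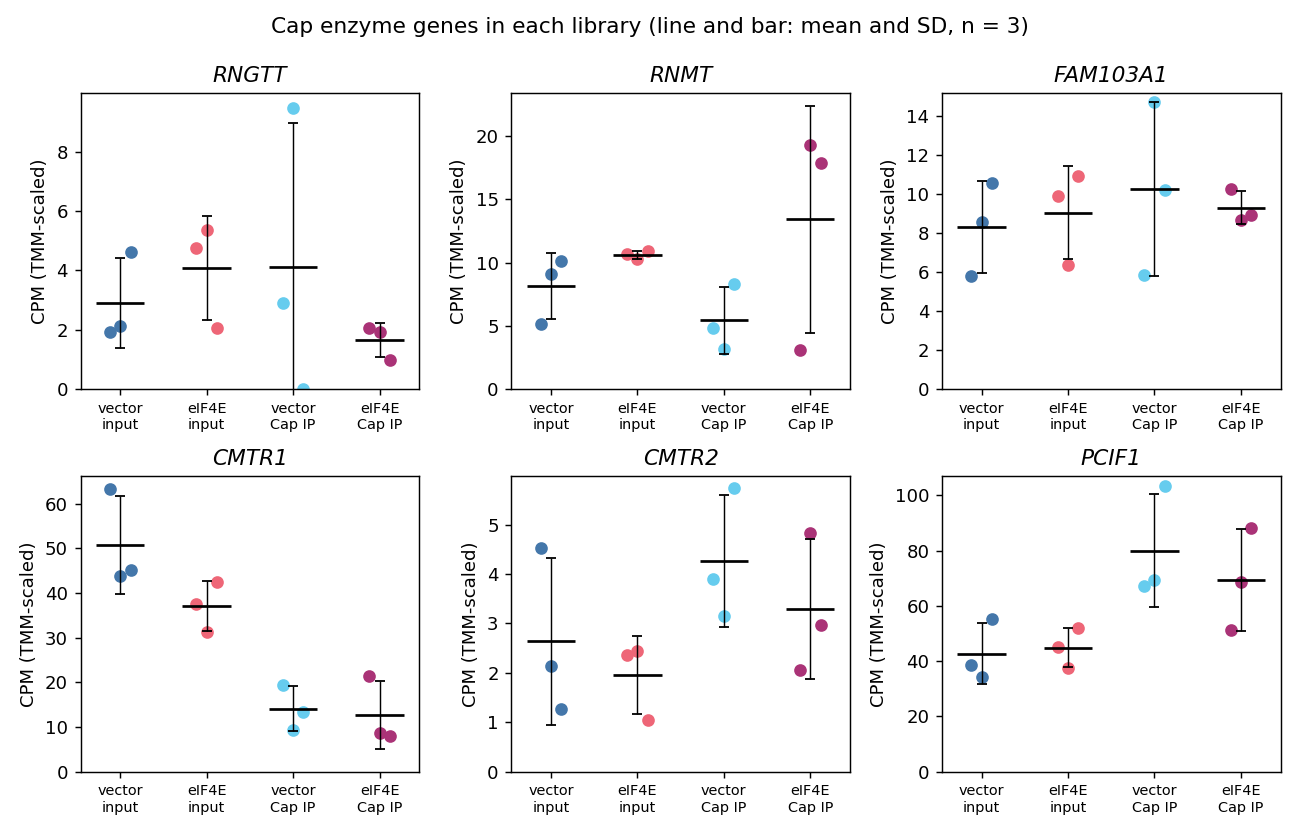
Each panel plots the TMM-scaled CPM of 1 cap enzyme gene (vertical axis, from 0, a scale of its own in each panel) in the 12 libraries by group. Points are libraries, the thick line is the mean and the bar the SD of 3 libraries, cut at 0. CMTR1 is lower in every Cap IP library than in any input library, and the eIF4E Cap IP libraries of RNMT lie at 3.08, 17.8 and 19.3 CPM.

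CMTR1, the first nucleotide ribose methyltransferase (chromosome 6, 37433219 to 37482827), had the largest change in Cap IP of the 4 tested members. In vector cells it went from 98, 82 and 107 counts before the immunoprecipitation to 20, 9 and 21 after it. In CPM, input stood at 63.4, 43.8 and 45.1 and Cap IP at 19.4, 9.46 and 13.4. All 3 input libraries lay above all 3 Cap IP libraries. In eIF4E cells CMTR1 went from 95, 64 and 82 counts to 21, 9 and 8, or 37.6, 31.3 and 42.6 CPM against 21.5, 8.69 and 7.93 CPM. Again the fractions did not overlap, as for 49.9% of all tested genes in vector cells and 54.8% in eIF4E cells. CMTR1 fell by 1.84 ± 0.37 (SE) on the log2 scale in vector cells (edgeR adjusted p = 7.24e-04) and by 1.55 ± 0.38 in eIF4E cells (edgeR adjusted p = 0.00297). Over both kinds of cell it was 3.23-fold lower in Cap IP, a log2 change of -1.69 ± 0.27 (95% interval -2.25 to -1.13, edgeR adjusted p = 2.21e-05, n = 6 against 6). The 6 input libraries all lay above the 6 Cap IP libraries, a lack of overlap seen in 29.4% of all tested genes. The loss was called without any 1 of the 12 libraries, with changes from -1.99 to -1.58.

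PCIF1, the cap adenosine methyltransferase (chromosome 20, 45934683 to 45948023), went the other way. In vector cells it went from 60, 64 and 131 counts to 69, 66 and 162. In CPM these were 38.8, 34.2 and 55.2 in input against 67.1, 69.4 and 103 in Cap IP, without overlap. In eIF4E cells it went from 114, 77 and 100 counts to 50, 71 and 89, or 45.1, 37.6 and 51.9 CPM against 51.3, 68.6 and 88.2 CPM. Here the lowest Cap IP library lay within the input range. PCIF1 rose by 0.90 ± 0.30 on the log2 scale in vector cells (edgeR adjusted p = 0.0209) and stood at 0.63 ± 0.30 in eIF4E cells (95% interval 0.01 to 1.25, edgeR adjusted p = 0.0925). With the title stem, which an input and a Cap IP library have in common, as a block, the value in eIF4E cells was 0.61 and was called (PCIF1 edgeR adjusted p = 0.0356). Over both kinds of cell PCIF1 rose by 0.77 ± 0.21, or 1.70-fold (95% interval 0.33 to 1.21, edgeR adjusted p = 0.00410). The call in vector cells was lost when vector input replicate 1 or 2 or vector Cap IP replicate 3 was left out (PCIF1 edgeR adjusted p = 0.0678, 0.0864 and 0.108).

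Another scaling of the libraries moved both genes together with all others. With total counts as library sizes the median of all tested genes moved from -0.10 to -0.88 for Cap IP against input over both kinds of cell. PCIF1 then stood at 0.01 (edgeR adjusted p = 0.970) and CMTR1 at -2.47 (edgeR adjusted p = 4.43e-07). Relative to the median of all genes the values under TMM and total counts were 0.87 and 0.89 for PCIF1 and -1.59 and -1.59 for CMTR1. The ratio of PCIF1 to CMTR1 counts within a library, which no library size enters, was 0.612, 0.780 and 1.22 in the vector libraries of input and between 1.2 and 1.22 in the eIF4E ones. After Cap IP it stood at 3.45, 7.33 and 7.71 for vector and 2.38, 7.89 and 11.1 for eIF4E. All 6 Cap IP libraries lay above all 6 input libraries in this ratio, which was looked at after the values of both genes were seen and is given as a description.

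RNMT, the m7G methyltransferase (chromosome 18, 13726660 to 13764556), had no call between fractions. Its counts went from 8, 17 and 24 to 5, 3 and 13 in vector cells, and from 27, 21 and 21 to 3, 20 and 18 with eIF4E. The vector libraries went from 5.17, 9.09 and 10.1 CPM to 4.86, 3.15 and 8.30, with overlap. The eIF4E libraries went from 10.7, 10.3 and 10.9 CPM to 3.08, 19.3 and 17.8. The 3 eIF4E Cap IP libraries thus fell on both sides of the input, with replicate 1 low and the others high. Cap IP against input was -0.53 ± 0.55 in vector cells and 0.34 ± 0.49 in eIF4E cells (edgeR adjusted p = 0.470 and 0.593). Over both it was -0.09, with a 95% interval of -0.86 to 0.67.

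FAM103A1, the activating subunit of RNMT (chromosome 15, 82986210 to 82991057), had no call between fractions either. Vector cells gave 9, 16 and 25 counts before Cap IP and 6, 14 and 16 after it, and eIF4E cells 25, 13 and 21 before and 10, 9 and 9 after. In CPM input and Cap IP overlapped in both kinds of cell, between 5.82 and 14.7 over all libraries. Cap IP against input over both kinds of cell was 0.15 ± 0.31 (95% interval -0.49 to 0.80, edgeR adjusted p = 0.689). With total counts it stood at -0.63 (edgeR adjusted p = 0.0872), and relative to the median of all genes at 0.26 with TMM and 0.25 with total counts.

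RNGTT, the capping enzyme (chromosome 6, 88609897 to 88963618), held 3, 4 and 11 counts in vector input, 12, 11 and 4 in eIF4E input, 3, 9 and 0 in vector Cap IP and 2, 2 and 1 in eIF4E Cap IP. The sums of 27 counts in eIF4E input (95% Poisson interval 17.8 to 39.3) and 5 in eIF4E Cap IP (1.62 to 11.7) cover counting error only. In eIF4E cells it went from 4.74, 5.38 and 2.08 CPM to 2.05, 1.93 and 0.992, groups that were apart by a narrow margin. The means were 4.07 ± 1.75 and 1.66 ± 0.581 CPM (SD, n = 3), and the exact two-sided permutation test gave p = 0.1, the smallest that 3 against 3 allows. Adjusted over the 10 permutation tests of RNGTT and CMTR2, it was 0.5. In vector cells the Cap IP libraries ran from 0 to 9.46 CPM, around the input range (exact permutation p = 0.8). Over 6 against 6 libraries the log2 ratio of means was -0.27 (exact permutation p = 0.751), and -1.14 (exact permutation p = 0.0519) without vector Cap IP replicate 2, which held 9 of the 17 Cap IP counts.

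CMTR2, which methylates the second nucleotide (chromosome 16, 71281389 to 71289715), held 7, 4 and 3 counts in vector input, 6, 5 and 2 in eIF4E input, 4, 3 and 9 in vector Cap IP and 2, 5 and 3 in eIF4E Cap IP. Its mean was 2.30 ± 1.24 CPM in the 6 input libraries and 3.77 ± 1.34 in the 6 Cap IP libraries (exact permutation p = 0.0801, and 0.5 adjusted over the 10 tests of RNGTT and CMTR2). Without vector input replicate 1 or eIF4E Cap IP replicate 1 the unadjusted exact permutation p was 0.0173 and 0.0390. The log2 ratio was 0.72 with TMM and -0.04 with total counts, a shift like that of the median of all genes. When all genes with a count were fitted, CMTR2 stood at 0.64 ± 0.56 and RNGTT at -0.60 ± 0.56 over both kinds of cell (edgeR adjusted p = 0.473 and 0.517).

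Set against all genes, 2 of the 4 tested members were called for Cap IP against input over both kinds of cell, where 58.3% of all 12460 genes were. In vector cells 2 of 4 were called against 39.5% of all genes, and in eIF4E cells 1 of 4 against 45.1%. With the title stem as a block, 2 of 4 were called in each kind of cell. That fit called 6084 of the 12460 genes in vector cells and 6690 in eIF4E cells. With 4 members these shares cannot be told from those of all genes. The change of CMTR1 over both kinds of cell was above that of 12.7% of all tested genes, and that of PCIF1 above that of 75.2%. Genes with more exon bases tended to be lower in Cap IP, with a Spearman correlation of -0.28 between summed exon length and change. This was across 8815 protein-coding genes, which are not independent replicates. Among 2347 genes within 0.8 to 1.25 times the 5276 exon bases of CMTR1 the median change was -0.33, and CMTR1 lay above 8.86% of them. Among 1563 genes near the 3164 bases of PCIF1 the median was -0.03, and PCIF1 lay above 80.9% of them. RNMT, with 6980 bases, lay above 62.8% of genes of like length, and FAM103A1, with 1565, above 36.6%.

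**Figure D2:**
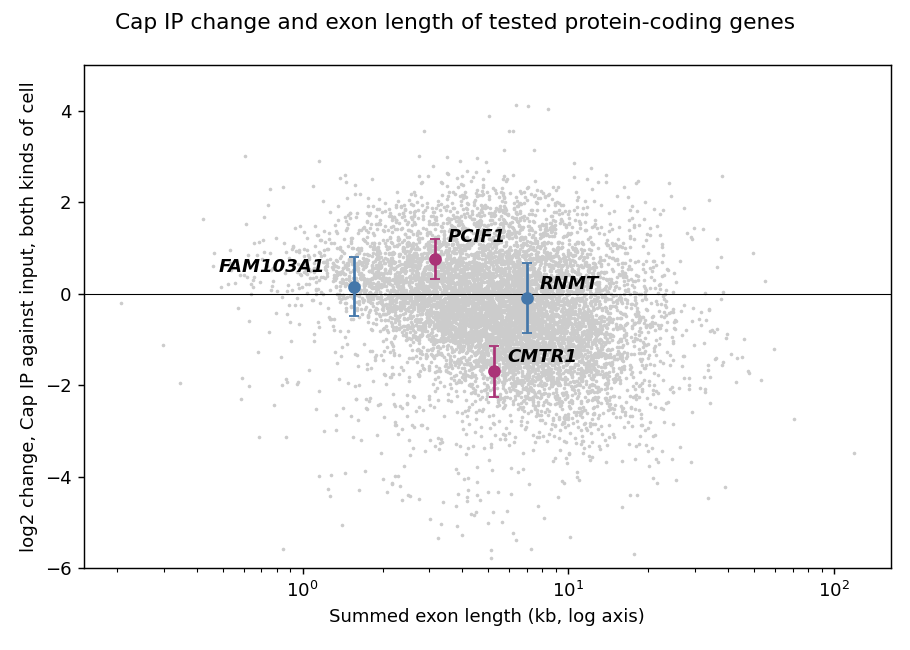
Each grey point is 1 of 8815 tested protein-coding genes, with its summed exon length in kb (horizontal, log axis) and its log2 change in Cap IP against input over both kinds of cell (vertical; 4 genes lie outside the axis). Large points with 95% intervals are the tested members, purple where the edgeR adjusted p was under 0.05 and blue where not. CMTR1 at -1.69 lies above 8.86% and PCIF1 at 0.77 above 80.9% of genes of like length.

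The comparison of eIF4E with vector cells asked whether the genes of the cap enzymes themselves respond to eIF4E. None of the 4 tested members was called in input, where 0.53% of all genes were. In simulated data this comparison called 8% of 2-fold and 81% of 4-fold changes, so a 2-fold change would mostly be missed. By edgeR 0 of the 4 had an unadjusted p under 0.05, which 13.5% of all genes had, and DESeq2 called 0 of the 4. CMTR1 was nonetheless lower in every eIF4E input library (31.3 to 42.6 CPM) than in every vector input library (43.8 to 63.4), with a change of -0.45 (95% interval -1.14 to 0.25, edgeR adjusted p = 0.577). RNMT was higher in every eIF4E input library (10.3 to 10.9 CPM) than in every vector one (5.17 to 10.1), with a change of 0.36 (95% interval -0.65 to 1.37, edgeR adjusted p = 0.778). Groups without overlap were found in 18.7% of all genes in this comparison, and 2 of 4 members is too few to set against that share. PCIF1 stood at 0.06 (95% interval -0.55 to 0.68) and FAM103A1 at 0.10 (-0.76 to 0.96), with overlapping libraries. RNGTT had 27 counts in eIF4E against 18 in vector input and CMTR2 had 13 against 14 (exact permutation p = 0.3 and 0.8).

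In Cap IP, again none of the 4 was called by edgeR or DESeq2, where 0.225% of all genes (28) were called by edgeR. In simulated data this comparison called 5% of 2-fold and 65% of 4-fold changes. With the title tag as a block, which pairs vector and eIF4E libraries, 114 genes were called and again 0 of the 4 members. Among the 4 tested members RNMT had the largest value, 1.23 ± 0.56 (95% interval 0.07 to 2.39, unadjusted p = 0.0394, edgeR adjusted p = 0.503), and was the 1 member with an unadjusted p under 0.05, which 9.2% of all genes had. The libraries overlapped, with eIF4E Cap IP replicate 1 at 3.08 CPM below all vector Cap IP libraries and replicates 2 and 3 above them. Leaving out 1 library gave RNMT values from 0.90 to 1.76 (edgeR adjusted p from 0.208 to 0.857). Groups without overlap were found for 0 of the 4 members and for 13.6% of all genes. FAM103A1, CMTR1 and PCIF1 stood at -0.13, -0.16 and -0.21, each with an interval that spans 0. RNGTT had 5 counts in eIF4E against 12 in vector Cap IP, of which 9 were in 1 library, and CMTR2 had 10 against 16 (exact permutation p = 0.7 and 0.4).

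Whether eIF4E changed the uptake of each RNA by the Cap IP, relative to other genes, was asked by the difference of the 2 Cap IP changes. Each library is scaled to its own size, so a change of uptake common to all genes cannot be seen here. The difference was called for 0 of the 4 members and for 0 of all 12460 genes (0%) by edgeR, and DESeq2 also called 0. In simulated data this comparison called 0% of 2-fold and 11% of 4-fold changes. The 0 calls therefore do not show that a difference is absent. With the title stem as a block 51 genes and 0 members were called. An unadjusted p under 0.05 was reached by 728 genes (5.84%) and by 0 members. RNMT stood at 0.87 (95% interval -0.67 to 2.41), CMTR1 at 0.29 (-0.83 to 1.41), FAM103A1 at -0.24 (-1.53 to 1.05) and PCIF1 at -0.28 (-1.15 to 0.60). Per pair of an input and a Cap IP library that share a title stem, the log2 ratio of Cap IP to input for CMTR1 ran from -2.00 to -1.61 with the vector and from -2.17 to -0.75 with eIF4E. For PCIF1 it ran from 0.76 to 0.98 and from 0.18 to 0.83. With TMM scaling it was below 0 for CMTR1 and above 0 for PCIF1 in all 6 pairs. With total counts as library sizes the fitted Cap IP change of PCIF1 was 0.20 in vector cells and -0.18 in eIF4E cells. That of CMTR1 was -2.54 and -2.39. For RNMT the log2 ratio per pair, with TMM, ran from -1.11 to -0.06 with the vector and from -1.32 to 0.80 with eIF4E. For FAM103A1 this ratio ran from -0.04 to 0.66 and from -0.24 to 0.36.

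**Figure D3:**
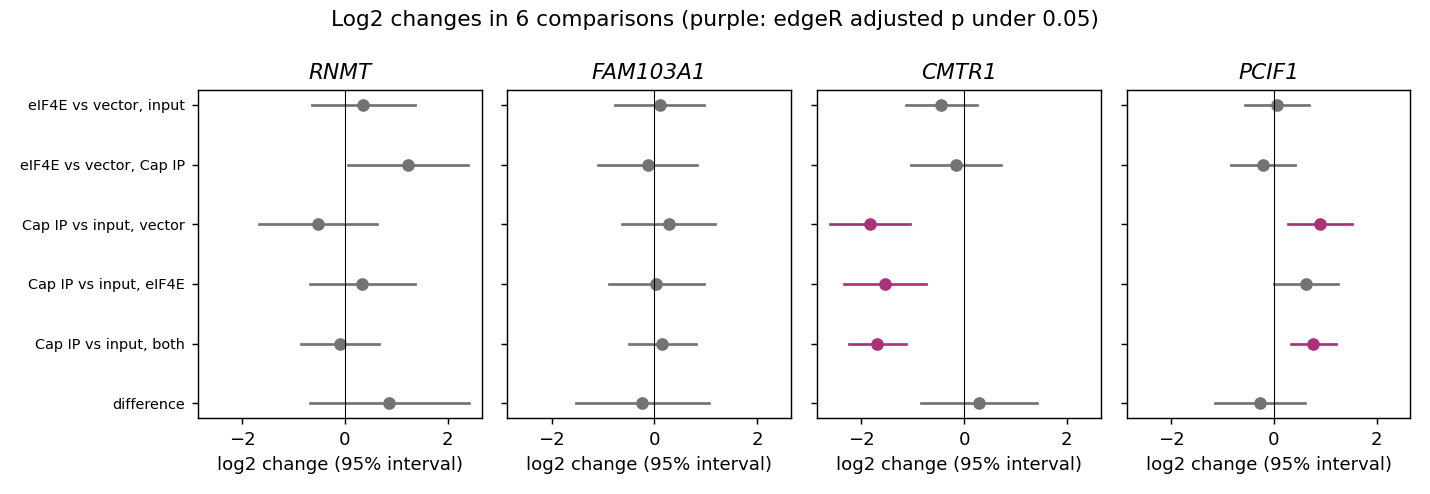
Each panel gives the log2 change (horizontal axis) of 1 tested member with its 95% interval in the 6 comparisons (vertical axis), purple where the edgeR adjusted p was under 0.05. The called values are CMTR1 in all 3 rows of Cap IP against input and PCIF1 in vector cells and over both kinds of cell.

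In input the counts of RNMT were close to those of FAM210A, a mitochondrial protein gene that starts beside it on the other strand. Before Cap IP, FAM210A had 9, 19 and 24 counts beside 8, 17 and 24 of RNMT with the vector, and 30, 23 and 24 beside 27, 21 and 21 with eIF4E. After Cap IP it had 7, 8 and 11 beside 5, 3 and 13, and 8, 12 and 23 beside 3, 20 and 18. The ratio was between 1.00 and 1.14 in all 6 input libraries and spread from 0.600 to 2.67 in Cap IP, where counts were lower. Over the 12 libraries Pearson's r of log2 CPM was 0.73, as a description. The annotated exons of the pair share 4 bases only. The genes most like RNMT over the 12 libraries among 8708 were TMEM185B, WNK4 and OSBP, with r = 0.89 each, above the 0.73 of FAM210A.

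FAM103A1 and the gene opposite to it behaved differently. C15orf40 held 4164 counts over all libraries against 173 for FAM103A1, a ratio of 24.1. In input the ratio ran from 5.48 to 15 and in Cap IP from 37.3 to 80.3, without overlap. C15orf40 went from 85.3, 98.3 and 86.4 CPM in vector input to 274, 601 and 381 in vector Cap IP. In eIF4E cells it went from 54.2, 95.3 and 105 to 405, 698 and 535 CPM. C15orf40 rose by 2.45 ± 0.24 over both kinds of cell (edgeR adjusted p = 8.06e-08), above 98.8% of all tested genes, while FAM103A1 stood at 0.15. Which strand of this locus the C15orf40 counts come from is not known from the file, so the counts of both genes are uncertain.

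**Figure D4:**
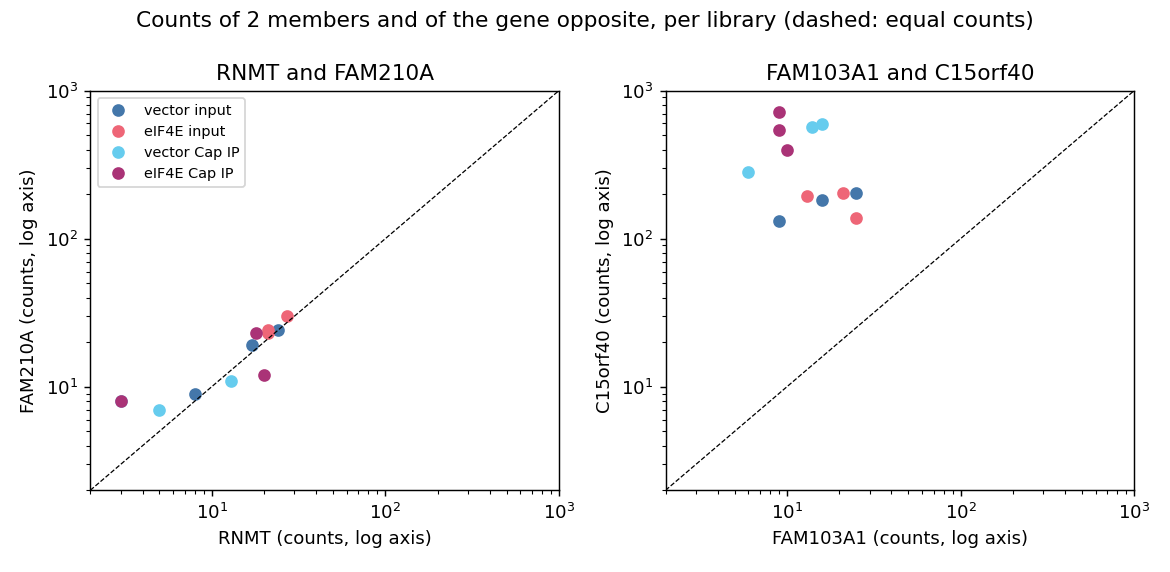
Counts per library of RNMT against FAM210A (left) and of FAM103A1 against C15orf40 (right), on log axes, with colours for the 4 groups and a dashed line at equal counts. The input points of RNMT lie along the line, and those of Cap IP spread to both sides of it. The vector and eIF4E Cap IP libraries at 3 and 8 counts cover each other. The C15orf40 counts lie 5.48 to 80.3 times above those of FAM103A1.

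The genes whose pattern over the 12 libraries was most like that of CMTR1 were HADHA, SUN2 and ZDHHC5 (Pearson's r of log2 CPM 0.96 each), and most like PCIF1 were MTX1, UBE2D1 and NLRX1 (0.95 each). For FAM103A1 the highest were SNAPIN, ATG4D and SLC25A11 (0.74 each). Between the members, CMTR1 and PCIF1 had r = -0.80, and the other pairs lay between -0.32 and 0.35. RNMT and its subunit FAM103A1 had r = -0.09. These points share libraries and their depth, and input against Cap IP is the main difference among them.

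Around the members, 49 tested genes related to the pathway were examined in 5 lists. Of these 7 rose and 18 fell in Cap IP over both kinds of cell, which is 51.0% called beside 58.3% of all genes. By direction 27.1% of all genes rose and 31.2% fell. Of the 49 genes, 20 have exons that face another gene on the other strand. Among 11 cap-binding proteins 3 rose and 3 fell, with a median of -0.30 beside -0.10 for all genes. EIF4G1, the scaffold of the cap-binding complex of translation, fell by 2.16 and LARP1, a cap-binding regulator of ribosomal protein mRNAs, fell by 2.12 on the log2 scale. EIF4E rose by 1.09 and EIF4E2, its relative, by 0.95, both opposite to an unnamed gene, and with total counts both stood above 0 but were not called (0.32 and 0.16). Of 6 genes listed with other cap modifying enzymes 3 rose and 1 fell, with a median of 0.38. This list also holds genes that are not cap enzymes, such as LARP7. FTO, which can remove the methyl group that PCIF1 adds, fell by 2.12, and TGS1, the trimethylguanosine synthase, rose by 1.23. LARP7, which binds the 7SK RNA, rose by 1.34 and BCDIN3D, an RNA end methyltransferase, by 1.18. The edgeR adjusted p of the genes named here ran from 4.79e-08 for EIF4G1 to 0.00402 for BCDIN3D. The 3 gains were not called with total counts (0.42, 0.53 and 0.40 for TGS1, LARP7 and BCDIN3D). FTO, LARP7 and BCDIN3D have exons opposite to another gene.

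Over both kinds of cell 27.1% of all genes rose in Cap IP and 31.2% fell, with a median change of -0.10. No list was tested against these values. Of 9 cap removal and decay genes 0 rose and 4 fell, with a median of -0.73. They were the decapping scaffold genes EDC4 (-1.82) and EDC3 (-2.09), DXO, which removes faulty caps (-1.0), and the decapping cofactor gene DCP1A (-1.02). The DCP1A call was lost without replicate 1 or 2 of eIF4E input, vector input replicate 1, vector Cap IP replicate 2 or eIF4E Cap IP replicate 3 (edgeR adjusted p from 0.0528 to 0.0722). EDC3 and DXO, and MAT2A of the next list, also have exons opposite to another gene. Of 11 genes for methyl donor and GTP supply 0 rose and 6 fell, with a median of -0.72. Those with the smallest p were the methionine synthase gene MTR (-1.30), AHCY, which clears the product that inhibits methyltransferases (-0.72), the GTP synthesis gene IMPDH1 (-0.87) and the methionine adenosyltransferase gene MAT2A (-0.76). Of 12 genes listed for the link of capping to polymerase II 1 rose and 4 fell, with a median of -0.43. This list also holds genes with other roles, such as IPO5. POLR2A, the large subunit of the polymerase, fell by 1.88, SUPT5H, whose protein is known to recruit the capping enzyme, by 0.98, and the import receptor gene IPO5 by 1.35. NELFE, a pausing factor gene, rose by 0.98, and with total counts stood at 0.20 and was not called. The edgeR adjusted p of the genes named from these 3 lists ran from 4.98e-07 for POLR2A to 0.0276 for DCP1A.

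Between eIF4E and vector cells 0 of these 49 genes were called in input and 0 in Cap IP by edgeR, and DESeq2 called 0 in each. By edgeR 7 of them in input and 1 in Cap IP had an unadjusted p under 0.05, which 13.5% and 9.2% of all genes had, so that the count in input is near the background. The smallest p in input belonged to NELFB (0.93, edgeR adjusted p = 0.164) and MEPCE, the 7SK capping enzyme gene with exons opposite to ZCWPW1 (0.79, edgeR adjusted p = 0.175). SUPT5H stood at 0.62 (edgeR adjusted p = 0.272) and EDC4 at 0.75 (edgeR adjusted p = 0.267). List medians in input were 0.24 for cap-binding proteins, -0.07 for the list with other cap modifying enzymes and LARP7, and 0.25 for cap removal. They were 0.30 for methyl donor and GTP supply and 0.38 for the polymerase II list, beside -0.05 for all genes.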

How the data were processed

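The deposited values were read counts per gene name for 12 libraries, not normalized by the authors as far as the values show. The submitters' processing notes list STAR 2.5.1b, featureCounts 1.4.5-p1, the build GRCh38.p5 and DESeq2. Per the labels, a KAPA RNA HyperPrep with RiboErase kit and single-end sequencing of 75 cycles were used. Annotation and strand setting of the counting: not given in the sources used here.

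Counts were filtered with filterByExpr, scaled with TMM and fitted with edgeR 4.0.16 (R 4.3.3, limma 3.58.1) by the quasi-likelihood test with a mean for each of 4 groups over all 12 libraries. Benjamini-Hochberg adjustment ran over the 12460 genes tested, with a threshold of 0.05, and intervals are at 95%. The SE of a fitted change was its size divided by the square root of the F statistic of the test. The intervals derive from this SE, which is unstable for changes very near 0. RNGTT and CMTR2 were below the filter and were tested by exact two-sided permutation of CPM. Ratios per pair used a pseudocount of 2 CPM, and correlations a prior count of 2. Genes of like length had 0.8 to 1.25 times the exon bases. Exons and positions came from GENCODE release 44 on GRCh38 and promoters from RefSeq. Tables and plots were made in Python 3.11.15 (NumPy 2.4.6, pandas 2.3.3, matplotlib 3.10.9, SciPy 1.17.1). The fits were tested on simulated data, with 200 genes changed 2-fold or 4-fold for each comparison.

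The genes named were the members, genes that overlap them, EIF4E, up to 4 genes per list with the smallest p, and the 3 genes most like each member. The members and lists were chosen with earlier results of these data known. Alternatives were DESeq2 1.42.0, other library sizes, no filter, fits of only the groups compared, blocks, and each library left out.

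A tag in the titles is common to a vector and an eIF4E library, and a stem to an input and a Cap IP library. Deviations of libraries with the same tag correlated at 0.20, 0.16 and 0.30 in Cap IP, each over 0.1, and there the tag was taken to pair the libraries. In input the values were 0.18, 0.01 and -0.04, and the tag was not taken to pair them. For the stem they were 0.43, 0.27 and 0.44 in vector cells, taken as pairs, and 0.35, 0.08 and 0.11 in eIF4E cells, which missed the same bound once and were not. The main fits used a mean per group and no pairs, and tag and stem entered only as blocks in alternative fits. With the stem as a block, 2 members and 6084 genes were called for Cap IP against input in vector cells.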

Additional observations from a re-analysis of the deposited data

How the results depend on the processing

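Genes called between eIF4E and vector in input numbered 66, and 151 with DESeq2, 11 with total counts as library sizes, 318 with no filter on low counts, 18 with only the groups compared and 7 to 109 when 1 library was left out. In Cap IP they numbered 28, and 75, 204 and 6 with DESeq2, no filter and only the groups compared, and 0 to 30 without 1 library. The difference between cells had 0 calls, and 3 with no filter. With the title tag as a replicate block 282 genes were called in input and 114 in Cap IP, and with the title stem as a replicate block 51 for the difference, with 0 members in each. The stem block made 2 members called in eIF4E cells (PCIF1 0.61, edgeR adjusted p = 0.0356). Of all genes it called 6690 there, beside 5625 without the block.

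Members called for Cap IP against input were 1 in vector cells and 1 over both kinds of cell with total counts. In vector cells they were 1 with no filter (PCIF1 edgeR adjusted p = 0.0541) and 1 to 2 when 1 library was left out. Of all genes, total counts called 5723 in vector cells and 8284 over both, beside 4921 and 7260 in the main fit. In vector cells 5563 genes were called with no filter, where more genes were tested, and 4044 to 4687 when 1 library was left out. Total counts lowered the median of all genes for Cap IP against input from -0.10 to -0.88, and with this common shift these signs turned: FAM103A1 stood at -0.46 in vector cells, -0.79 in eIF4E cells and -0.63 over both, RNMT at -0.47 and PCIF1 at -0.18 in eIF4E cells, FAM210A at -0.76 over both, RNGTT at -0.40 in vector cells, and CMTR2 at -0.13 in eIF4E cells and -0.043 over both. FAM103A1 in eIF4E cells stood at -0.13 with no filter and -0.062 with only the groups compared. FAM210A over both stood at -0.10 with no filter, -0.027 with DESeq2, -0.026 with its size factors and -0.025 with the stem block.

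Values without calls also changed sign when 1 library was left out. Between eIF4E and vector in input the ranges were -0.075 to 0.32 for FAM103A1, -0.064 to 0.30 for PCIF1 and -0.77 to 0.20 for CMTR2. In Cap IP they were -0.38 to 0.19 for FAM103A1, -0.73 to 0.13 for CMTR1, -0.42 to 0.060 for PCIF1 and -1.90 to 0.19 for RNGTT. Cap IP against input ran from -0.015 to 0.55 for FAM103A1 and -0.99 to 1.09 for RNGTT in vector cells, from -0.023 to 0.80 for RNMT and -0.16 to 0.18 for FAM103A1 in eIF4E cells, and from -0.34 to 0.14 for RNMT and -0.26 to 0.14 for FAM210A over both. The difference ran from -0.53 to 0.040 for FAM103A1 and from -0.32 to 0.54 for CMTR1. The cause of these changes was not tested. CMTR1 was lower in Cap IP and called under every alternative run. With the longest transcript as length 7 of 24 levels moved by more than the SD: RNMT to 1.70, CMTR1 to 9.21, CMTR2 to 0.400 and PCIF1 to 16.7 CPM per kb in eIF4E input, CMTR1 to 12.6 in vector input, and CMTR2 to 0.874 and 0.674 in vector and eIF4E Cap IP. Counts of at most 27 per library limit what can be seen for RNGTT, CMTR2, RNMT and FAM103A1.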
